A study of Mus musculus with 4 samples.

Results

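Proliferating T cells of the nasal mucosa were followed in 4 single-cell RNA sequencing libraries of mice with and without allergic rhinitis. They were chosen by a rule on raw UMIs (counted RNA molecules): a cell had at least 500 UMIs, at least 200 genes and under 10% of its UMIs from mitochondrial genes, at least 2 UMIs of Cd3e, Cd3d and Cd3g together (the CD3 chains of the T cell receptor complex), at least 3 UMIs of Mki67 and Top2a together (a coat protein of mitotic chromosomes and the topoisomerase that untangles replicated DNA), 0 UMIs of Foxp3, Cd79a, Cxcr2 and Cpa3, and under 2 UMIs of C1qa, C1qb and C1qc together. Of 72320 cells that passed the filters, 786 met it. The rule uses measured values, so levels of its own genes are a description and are used as support for nothing.

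The libraries held CD45+ cells, that is leukocytes by their surface protein CD45, of the nasal mucosa of C57BL/6 mice aged 8 weeks. The cells were taken by magnetic sorting per the sample labels and by flow sorting per the series text. Mice received vehicle or ribavirin, an antiviral drug whose known target in cells is the nucleotide synthesis enzyme IMPDH, and in each case some were also exposed to OVA (ovalbumin, the model allergen). The groups are written Vehicle and Ribavirin for mice without OVA, and Vehicle-OVA and Ribavirin-OVA for mice with it. In the model as the study describes it, mice are sensitised by injection of OVA with alum and then given OVA in the nose. Each group was 1 library, the number of mice in it was not stated, so differences between groups have no replicate check and no test was made.

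Values are given below in the order Vehicle, Vehicle-OVA, Ribavirin and Ribavirin-OVA wherever 4 values follow each other. The libraries held 28277, 19143, 21401 and 10311 deposited cells with 171873110, 102796247, 168064152 and 91742940 UMIs. The T cells of the rule, whatever their Mki67 and Top2a UMIs, numbered 5408, 1214, 3385 and 1484. Of these, 379, 77, 226 and 104 were proliferating T cells, and 3970, 863, 2464 and 1022 had no UMI of either gene and are called non-cycling T cells here. Every pair of libraries shared between 57 and 174 cell barcodes, and no barcode belonged to a proliferating T cell in both libraries of a pair.

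A T cell divides after its receptor and costimulatory receptors have been engaged. Cyclins and their kinases then carry it through S phase, in which DNA is copied and histones are made to package the copy, and through G2 and M, in which chromosomes condense and separate. Helper cells of the type 2 kind, central to allergy, make IL-4, IL-5 and IL-13, and those of the type 17 kind make IL-17. These and cytotoxic cells expand by division. A dividing cell can be read both for its cycle stage and for the kind of T cell it is.

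The label was first checked against genes the rule did not use. T cell genes outside the rule (11 genes, among them the adaptor Lat, the kinase Lck and the surface protein Thy1) were at like levels in proliferating and non-cycling T cells: none of the 11 differed by 2-fold in any library, and their median log2 ratio was −0.31, −0.12, −0.31 and −0.04. Thy1 was seen in 358 of 379, 74 of 77, 211 of 226 and 99 of 104 cells, and Lat in 360, 67, 215 and 94 cells. Genes of thymocytes were near 0, with a summed level between 0 and 3.26 CPM (UMIs scaled to a common total per library), and Rag1 and Rag2, the recombinase of developing lymphocytes, were at 0 in all 4 libraries.

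The cycle side of the label held for a part of the cells. The share of a T cell's UMIs from other G2/M genes differed little between non-cycling cells and cells at the limit of the rule, and was highest in cells with 8 or more Mki67 and Top2a UMIs. In Vehicle the median G2/M share was 0.211% of UMIs in non-cycling T cells, 0.260% at 3 UMIs, 0.425% at 4, 0.603% at 5 to 7 and 1.93% at 8 or more. In Vehicle-OVA it was 0.228% in non-cycling T cells, 0.260% at 3 and 1.17% at 8 or more. In Ribavirin it was 0.201%, 0.266% and 1.66% at the same 3 places. In Ribavirin-OVA it was 0.227% in non-cycling T cells, 0.233% at 3, 0.221% at 5 to 7 (14 cells) and 1.74% at 8 or more. The S phase share also differed most at 8 or more, from 0.0903%, 0.128%, 0.0914% and 0.128% in non-cycling cells against 0.508%, 0.710%, 0.496% and 0.523% at 8 or more, but it did not grow at each step: in Ribavirin-OVA it was 0.104% at 5 to 7. Just inside the limit, at 3 UMIs, stood 66, 26, 38 and 46 cells with median S phase shares of 0.105%, 0.145%, 0.164% and 0.119%. Just outside, at 2 UMIs, stood 235, 71, 160 and 97 cells with 0.0925%, 0.126%, 0.102% and 0.127%.

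**Figure D1:**
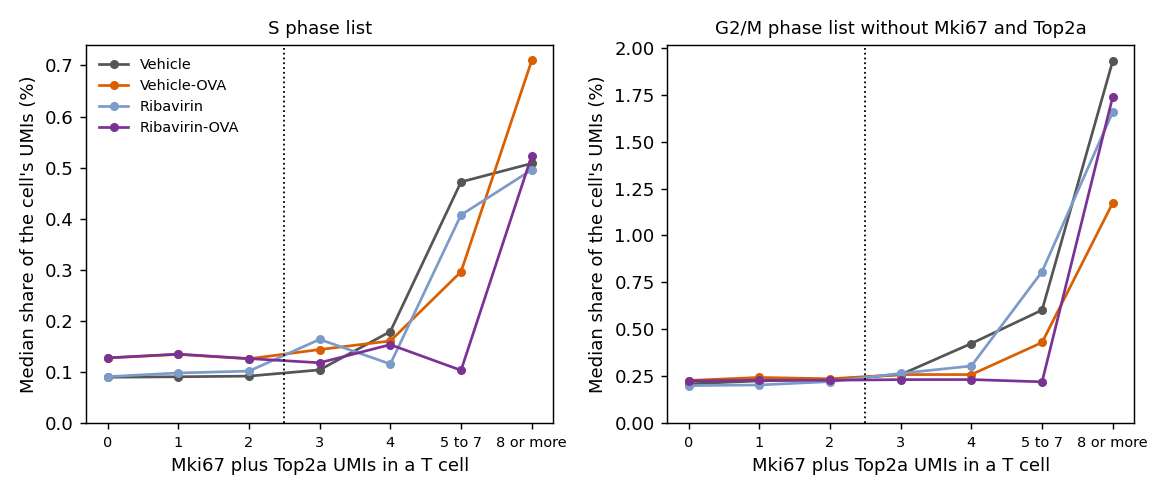
Median share of a T cell's UMIs (percent, y axis) from the S phase list and from the G2/M list without Mki67 and Top2a, against its Mki67 and Top2a UMIs (x axis), 1 line per library, with a dotted line at the limit of the rule. The G2/M shares at 3 UMIs (0.233% to 0.266%) lie near those at 0 (0.201% to 0.228%), the S phase share at 3 is highest in Ribavirin (0.164% against 0.0914% at 0), and the G2/M share reaches 1.17% to 1.93% at 8 or more.

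Cells with 8 or more Mki67 and Top2a UMIs made up 248 of 379 cells in Vehicle (65.4%), 31 of 77 in Vehicle-OVA (40.3%), 143 of 226 in Ribavirin (63.3%) and 34 of 104 in Ribavirin-OVA (32.7%). The proliferating T cells of the OVA libraries thus held a larger part of cells near the limit, with 36 and 56 cells at 3 or 4 UMIs against 89 and 59 in the libraries without OVA. Stmn1, a microtubule regulator of dividing cells that the rule did not use, shows the same split: it was at 1397, 1168, 1147 and 1217 CPM in the cells with 8 or more and at 270, 108, 255 and 61 CPM in those with 3 or 4. All cells of the rule are described below, and values in the cells with 8 or more, a limit chosen after the data were seen, are set beside them where they bear on a result.

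Many genes of the G2/M list are known to be held off outside G2 and M through a short promoter element, the CHR, and many S phase genes are known targets of E2F factors, so promoters of abundant members are shown to give the letters behind these lists. They were read from RefSeq promoters of GRCm38.p6, 150 bases before each gene's start in the orientation of the gene, and searched on both strands for TTTGAA or TTCGAA (CHR) and for TTTCCCGC, TTTGGCGC or TTTCGCGC (E2F). Capitals mark the matches. The first 3 belong to G2/M genes: Hmgb2, a chromatin protein (chr8:57511693-57511842, plus strand), Top2a (chr11:99024190-99024339, minus strand) and Mki67 (chr7:135716380-135716529, minus strand). The others belong to S phase genes: Mcm6 and Mcm5, subunits of the replicative helicase (chr1:128359706-128359855, minus strand, with 2 overlapping matches at its first site, and chr8:75109359-75109508, plus strand), and Hells, a chromatin remodeller (chr19:38930840-38930989, plus strand).
Hmgb2: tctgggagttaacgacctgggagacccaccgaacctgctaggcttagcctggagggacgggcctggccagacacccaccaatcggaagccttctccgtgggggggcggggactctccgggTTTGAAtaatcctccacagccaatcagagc
Top2a: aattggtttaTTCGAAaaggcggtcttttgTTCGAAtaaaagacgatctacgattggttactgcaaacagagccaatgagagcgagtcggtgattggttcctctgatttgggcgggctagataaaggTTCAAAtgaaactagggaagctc
Mki67: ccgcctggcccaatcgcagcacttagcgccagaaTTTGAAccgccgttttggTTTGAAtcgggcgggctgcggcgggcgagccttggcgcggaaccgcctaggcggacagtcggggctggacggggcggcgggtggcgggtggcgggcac
Mcm6: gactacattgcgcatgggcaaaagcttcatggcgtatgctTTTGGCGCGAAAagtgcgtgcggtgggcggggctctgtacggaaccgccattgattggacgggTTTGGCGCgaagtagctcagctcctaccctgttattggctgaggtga
Mcm5: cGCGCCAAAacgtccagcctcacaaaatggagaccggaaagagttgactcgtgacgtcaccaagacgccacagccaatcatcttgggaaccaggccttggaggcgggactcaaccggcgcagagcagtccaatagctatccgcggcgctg
Hells: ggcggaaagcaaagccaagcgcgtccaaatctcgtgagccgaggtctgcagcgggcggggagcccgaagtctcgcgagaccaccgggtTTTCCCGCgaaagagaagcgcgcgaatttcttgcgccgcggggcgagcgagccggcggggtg

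Of the 54 G2/M and 43 S phase genes listed, 46 and 31 had a promoter in the table. The CHR letters were in 18 of 46 G2/M promoters (39.1%), in 5 of 31 S phase promoters (16.1%) and in 3027 of 27025 genes in all (11.2%). The E2F letters were in 7 of 31 S phase promoters (22.6%), in 2 of 46 G2/M promoters (4.35%) and in 321 of all genes (1.19%). A match is a description of the letters and not a binding site. No replication-dependent histone gene had a promoter in the table.

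To examine how much of the T cell pool was dividing, the proliferating cells were set against all T cells of the same rule. They made up 7.01% of T cells in Vehicle (95% binomial interval 6.34 to 7.72), 6.34% in Vehicle-OVA (5.04 to 7.86), 6.68% in Ribavirin (5.86 to 7.57) and 7.01% in Ribavirin-OVA (5.76 to 8.43). All 4 intervals overlap. Like the other intervals given, they are exact (Clopper-Pearson for shares, Poisson for summed UMIs, conditional binomial for ratios) and cover counting error only. Those for summed UMIs and ratios take each UMI as independent, so they are too narrow where a gene's UMIs lie in few cells.

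The share moved with the limit on Mki67 and Top2a. At 5 or more UMIs it was 5.36%, 3.38%, 4.93% and 3.23%, and at 8 or more it was 4.59% (4.04 to 5.18), 2.55% (1.74 to 3.61), 4.22% (3.57 to 4.96) and 2.29% (1.59 to 3.19). At 5 and at 8 both OVA libraries stood below both libraries without OVA. At 2 or more UMIs they stood above both, with 11.4%, 12.2%, 11.4% and 13.5% over the 4 libraries. With each cell thinned to 2000 UMIs and any Mki67 or Top2a UMI counted, the shares were 16.5%, 16.5%, 15.0% and 15.3%. At 8 the intervals of Vehicle-OVA and Vehicle do not overlap, nor do those of Ribavirin-OVA and Ribavirin. These intervals cover counting error over the cells of a library only, so they do not test a difference between groups. The limit of 8 was also chosen after the data were seen. The median UMIs per cell were 11044, 8673, 12407 and 10424.5 over all proliferating T cells, lowest in the OVA libraries. They were 12442, 13620, 14542 and 16021 in those with 8 or more Mki67 and Top2a UMIs, a choice that favours deeper cells. In non-cycling T cells they were 3877.5, 4526, 4531 and 4971.5. The part of depth in the shares was not tested. Between ribavirin and vehicle the log2 ratio of the share was −0.07 without OVA and 0.14 with OVA at the limit of 3.

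**Figure D2:**
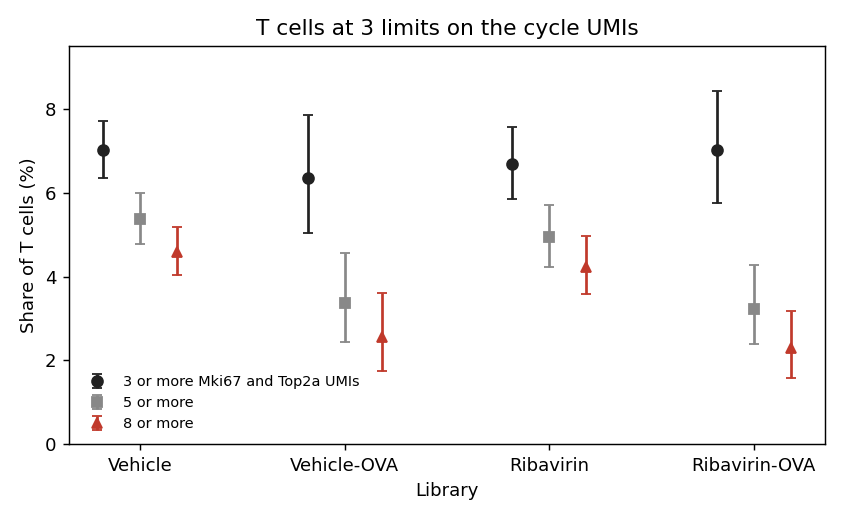
Share of T cells (percent, y axis) with at least 3, 5 or 8 Mki67 and Top2a UMIs in each of the 4 libraries, with bars for the 95% binomial interval. At 3 the shares lie between 6.34% and 7.01%, and at 8 they are 2.55% and 2.29% in the OVA libraries against 4.59% and 4.22% without OVA.

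Against all cells that passed the filters, the proliferating T cells were 1.47%, 0.440%, 1.11% and 1.18%. The lowest value, that of Vehicle-OVA, went with the fewest T cells in its library. Of all cells with 3 or more Mki67 and Top2a UMIs, they were 33.2%, 17.3%, 26.8% and 16.7%. T cells with Foxp3, the factor of regulatory T cells, which the rule left out, cycled at 8.78%, 6.73%, 8.86% and 11.5%.

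Next, the proliferating T cells were compared with the non-cycling T cells of the same library. UMIs were summed over the cells of a library and expressed as CPM, and log2 ratios had 10 CPM added to both values. A gene is called higher or lower at a 2-fold difference (1 on the log2 scale), among 9093 genes with at least 50 UMIs over the proliferating T cells of the 4 libraries. Since the rule chose cells by Mki67 and Top2a, this contrast describes what the choice brings along. In all 4 libraries 243 genes were higher (2.67% of the genes) and 24 were lower (0.264%).

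The genes higher in every library were led by those of the cycle. Of the G2/M list, which holds Mki67 and Top2a, 48 of 54 genes and of the S phase list 26 of 43 were higher in all 4, with median log2 ratios of 2.48, 2.06, 2.37 and 2.26 for G2/M and 1.72, 1.58, 1.77 and 1.23 for S phase. Outside these lists and the histones, 2810417H13Rik, which encodes the PCNA-associated factor of replication forks, led with log2 ratios of 5.79, 5.18, 5.44 and 4.90. Stmn1 followed with 5.03, 4.90, 4.31 and 4.57. Ccna2, the cyclin of S phase and G2, was at 163, 145, 147 and 151 CPM against 0.561, 0.676, 0.383 and 1.41 CPM in non-cycling T cells. Among the 20 leading genes were also the kinetochore and spindle genes Casc5, Aspm, Spc24, Spc25, Kif15, Prc1, Plk1, Bub1b and Sgol1, the condensin subunits Ncapg and Ncapg2, and the histone chaperone Asf1b. Tuba1b, a tubulin, was at 1190, 1214, 1063 and 1234 CPM against 117, 195, 117 and 172 CPM.

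Of the enzymes that make nucleotides, 7 of 27 were higher in all 4 libraries, among them Tyms, Tk1, Rrm1, Rrm2, Dut and Dctpp1. Of the replication licensing genes, which load the helicase onto DNA, 10 of 16 were higher in all 4. Of the cyclins and their kinases, 6 of 12 were higher in all 4. Ccnd2, a D-type cyclin of the step out of rest, went the other way in the libraries without OVA, with log2 ratios of −1.25 and −1.23 in Vehicle and Ribavirin against −0.59 and −0.49 in the OVA libraries. Of the cycle inhibitors, Cdkn2c, which holds back the D cyclin kinases, was higher in all 4 (1.82, 1.62, 1.61 and 2.00). Btg1, an antiproliferative gene of resting lymphocytes, stood at 809, 1889, 827 and 2334 CPM against 1958, 3612, 1989 and 3605 CPM in the non-cycling cells.

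Genes of naive and circulating T cells lay on the lower side. Of 7 listed, 2 were lower in the proliferating cells of all 4 libraries, with median log2 ratios of −1.03, −1.13, −0.98 and −1.37. Tcf7, a factor of naive and memory cells, had log2 ratios of −1.06, −1.05, −1.14 and −1.41. Il7r, the receptor for the survival cytokine IL-7, had −1.96, −1.27, −1.88 and −0.56. Il18r1, a receptor for IL-18, was at 156, 170, 127 and 261 CPM against 401, 591, 368 and 697 CPM, lower by 2-fold in all 4. Among the other genes lowest in all 4 were Cbr2, Cyp2f2 and Cyp2a5, enzymes of airway epithelium, and Cd163l1, a scavenger receptor known from T cells that make IL-17.

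Within the proliferating T cells, the OVA libraries were compared with the libraries without OVA, once under vehicle and once under ribavirin. These pairs share no library. Under vehicle 828 of 9093 genes were higher with OVA (9.11%) and 192 lower (2.11%), 11.2% in either direction. Under ribavirin 717 were higher (7.89%) and 286 lower (3.15%), 11% in either direction. In both pairs 386 genes were higher and 126 lower, 5 went opposite ways, and 82.5% of all 9093 genes had the same sign. Across these genes, which are not independent replicates, the log2 ratios of the pairs had a Pearson r of 0.747 and a Spearman rho of 0.753.

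Shifts of this kind were also present in non-cycling T cells, and the ratios ranked with the length of transcripts. The median log2 ratio of all genes was 0.28 and 0.27 in the proliferating cells and 0.27 and 0.27 in the non-cycling ones, and with the median set to 0 the calls were 324 higher and 525 lower under vehicle and 290 and 656 under ribavirin, so that the higher genes went from 81.2% to 38.2% and from 71.5% to 30.7% of the calls. Across genes, the rho between the ratio and the longest annotated transcript (GENCODE M21, 9083 genes) was 0.459 and 0.500 in the proliferating cells and 0.521 and 0.542 in the non-cycling cells. The 10% of genes with the shortest transcripts had a median log2 ratio of −0.44 and −0.52, and the 10% with the longest 0.62 and 0.67. In the ribavirin pairs the same rho was −0.024 and 0.063. Of 79 ribosomal protein genes, whose median length is 1094 bases against 3366 for all genes, 30 and 33 were lower with OVA (28 in both), with a median of −0.887 and −0.891 in the proliferating and −0.943 and −0.907 in the non-cycling cells. Rpl32, the one that came under the naming rule, was at 5380, 1582, 5240 and 1604 CPM, and its ratio in non-cycling T cells, −1.84 and −1.72, was like that in proliferating ones, −1.76 and −1.70. What part of any single difference goes with transcript length was not tested.

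**Figure D3:**
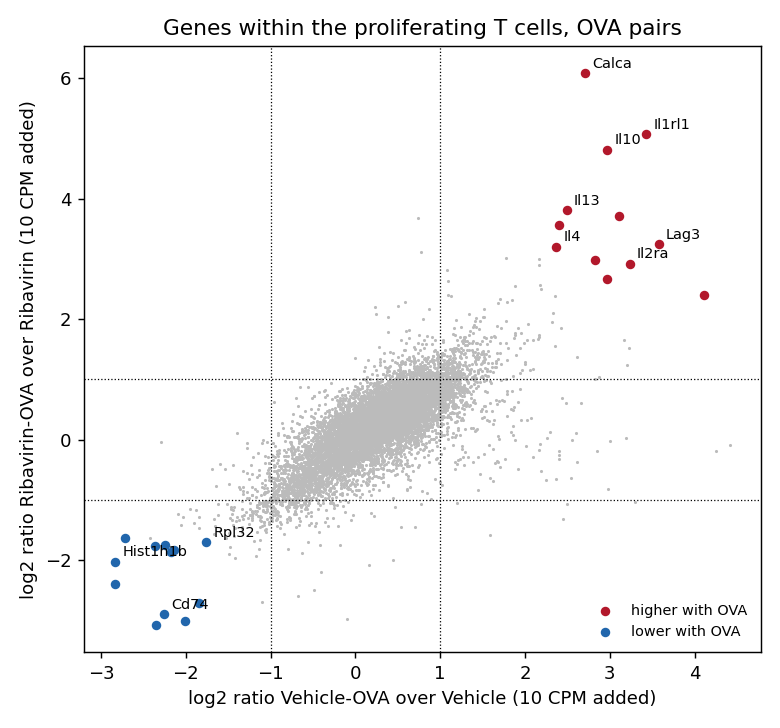
Log2 ratio of each of 9093 genes with OVA over without OVA in proliferating T cells, under vehicle (x axis) and under ribavirin (y axis), with dotted lines at 2-fold and with the genes of the naming rule in red (higher in both) and blue (lower in both). Il1rl1, Il13, Il4, Lag3 and Il10 lie at the upper right, and linker histones and class II genes at the lower left.

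The lower genes were led by histones. Replication-dependent histones package newly copied DNA, and their mRNAs end in a stem-loop and mostly carry no poly-A tail, while the libraries were primed on poly-A. Of 67 listed, 42 passed the limit of 50 UMIs. With OVA 29 of the 42 were lower under vehicle and 23 under ribavirin, 21 of them in both, and none was higher. The median log2 ratio was −1.41 and −1.07, against −0.06 and −0.09 for the same genes in non-cycling T cells. The summed level was 6985, 1419, 6052 and 2135 CPM in proliferating and 224, 117, 246 and 116 CPM in non-cycling T cells, so that the sum was lower with OVA in the non-cycling cells too.

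Hist1h1b, a linker histone, was at 2056, 280, 1586 and 382 CPM, which is 0.136 times (interval 0.119 to 0.155) and 0.241 times (0.219 to 0.264) the level without OVA. It was seen in 263, 25, 141 and 28 cells, and was at 4.99, 1.80, 6.66 and 1.06 CPM in non-cycling T cells. Hist1h1e, another linker histone, was at 671, 85.7, 580 and 102 CPM, and in non-cycling T cells at 32.0, 8.33, 36.0 and 4.94 CPM. Hist1h4d, a core histone gene, was at 637, 133, 507 and 132 CPM, and Hist1h2bj at 109, 13.1, 119 and 27.8 CPM. Hist1h2ap did not follow, with 147, 99.9, 181 and 299 CPM.

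The cells with 8 or more Mki67 and Top2a UMIs showed the same order. Histones made up a median of 0.988%, 0.154%, 0.829% and 0.209% of their UMIs, so the difference was not limited to the cells near the limit. Of all proliferating T cells, 121 in Vehicle and 60 in Ribavirin gave at least 1% of their UMIs to histones, against 0 in Vehicle-OVA and 2 in Ribavirin-OVA, where the highest cells reached 0.794% and 1.86% (3.31% and 3.71% without OVA). Cycling cells with no Cd3 UMI and 8 or more Mki67 and Top2a UMIs had medians of 0.365%, 0.0977%, 0.549% and 0.263% (232, 126, 202 and 218 cells), and Foxp3 T cells at that limit 0.981%, 0.0335%, 0.961% and 0.388%, of which the OVA values rest on 3 and 5 cells. The lower histone share with OVA was therefore seen in cycling cells outside the rule too. The median length of the histone genes is 600 bases, against 3366 for all genes, and the part of length in the difference was not tested.

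**Figure D4:**
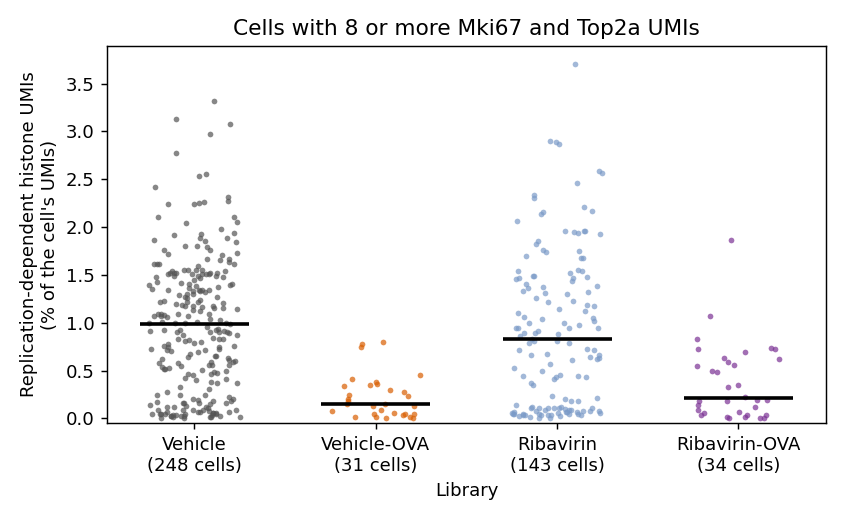
Percent of a cell's UMIs from replication-dependent histone genes (y axis) in proliferating T cells with 8 or more Mki67 and Top2a UMIs, 1 point per cell, by library, with a bar at the median. The medians are 0.988% and 0.829% without OVA and 0.154% and 0.209% with OVA.

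Other cycle genes differed less. Of the S phase list 1 gene was higher and 2 lower with OVA under vehicle, and 0 and 2 under ribavirin. Of the G2/M list 4 and 3 were lower and none higher. Birc5, the survivin of the chromosomal passenger complex, was at 447, 212, 411 and 186 CPM, and Cdca8, its partner, at 303, 130, 242 and 107 CPM, both past 2-fold in both pairs. Gins2, a subunit of the helicase complex, was at 55.8, 21.4, 55.6 and 13.1 CPM. Mcm2, a helicase subunit, was at 77.3, 165, 94.9 and 104 CPM, with log2 ratios of 1.01 under vehicle and 0.12 under ribavirin. Rrm2, the ribonucleotide reductase subunit of S phase, was near the same level in all 4, with 273, 261, 239 and 222 CPM. Ccnd2 was higher with OVA in both pairs, with 121, 438, 125 and 518 CPM, and its partner kinase Cdk6 was higher too, by 1.29 and 1.44 on the log2 scale. As given above, Ccnd2 stood lower in proliferating than in non-cycling T cells of every library, so its difference with OVA is not particular to division.

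The 12 genes highest with OVA in both pairs included Il1rl1, Il13 and Il4 of the type 2 list. All 12 also had positive log2 ratios in non-cycling T cells, from 0.77 to 4.01 under vehicle and from 0.02 to 4.00 under ribavirin. Of 13 type 2 genes listed, 11 passed the limit, of which 5 were higher under vehicle and 10 under ribavirin, with a median log2 ratio of 0.87 and 2.28 (0.62 and 1.05 in non-cycling T cells). The 5 in both pairs were Gata3, Il4, Il13, Il1rl1 and Pparg. Over all genes 9.11% were higher under vehicle and 7.89% under ribavirin. Gata3, the factor that sets the type 2 state, was at 54.3, 278, 60.7 and 520 CPM, which is 5.13-fold (4.27 to 6.15) and 8.56-fold (7.28 to 10.1) higher with OVA. Both OVA libraries were above both others, and Ribavirin-OVA was the highest. In Vehicle-OVA 5 cells held 57.7% of the Gata3 UMIs, and in Ribavirin-OVA 25.4%. Gata3 was seen in 40.1%, 54.5%, 45.1% and 72.1% of cells, and in 9.55%, 26.7%, 12.4% and 45.2% after each cell had been thinned to 2000 UMIs. In neutrophils (cells with neutrophil genes and no Cd3 UMI, median depth 2391.5 to 3152.5 UMIs), which should lack it, the share was 0.338% to 0.624%.

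Il1rl1, the receptor for the alarmin IL-33, was at 8.90, 194, 11.5 and 711 CPM, 21.8-fold (15.4 to 31.5) and 61.8-fold (44.3 to 88.9) higher. It was seen in 19, 9, 8 and 31 cells, and 5 cells held 95.7% of its UMIs in Vehicle-OVA against 40.5% in Ribavirin-OVA. In non-cycling T cells Il1rl1 was at 6.57, 68.2, 10.6 and 194 CPM, higher with OVA in both pairs too. Il13, a cytokine of type 2 inflammation, was at 0.651, 50, 2.56 and 166 CPM from 2, 5, 3 and 20 cells. In Ribavirin-OVA that is 19.2% of cells (10.6% after thinning) against 0.817% of neutrophils, and in Vehicle-OVA 1 cell held 59.5% of the UMIs. Il4, which drives the type 2 state, was at 0 in both libraries without OVA and at 41.6 and 82.0 CPM with OVA, at least 63.9-fold and at least 85.5-fold higher when 3 counts per library are taken as the floor. Its cells numbered 0, 5, 0 and 16, and 1 cell held 85.7% of its UMIs in Vehicle-OVA. In Ribavirin-OVA that is 15.4% of cells (6.73% after thinning) against 0.240% of neutrophils and 3.97% of B cells (0.429% after thinning), which should lack it. Il5, the cytokine of eosinophils, was at 0.651, 5.95, 1.92 and 47.9 CPM from 2, 3, 3 and 11 cells. In Ribavirin-OVA 1 cell held 67.7% of the Il5 UMIs. Areg, an epidermal growth factor family member, was at 51.5, 92.8, 22.7 and 409 CPM. In non-cycling T cells Il13 was at 0.224, 25.2, 1.91 and 26.3 CPM and Il4 at 0.168, 12.6, 1.15 and 7.06 CPM.

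Under vehicle these values rest on few cells, several of which also hold RNA of other lineages. In Vehicle-OVA 33 of 77 cells (42.9%) had 10 or more UMIs of neutrophil, macrophage, dendritic, B, plasma or epithelial genes, 30 of them of neutrophil genes, against 44 (11.6%), 41 (18.1%) and 2 (1.92%) in Vehicle, Ribavirin and Ribavirin-OVA. Neutrophil genes summed to 216, 1366, 415 and 188 CPM over all proliferating T cells and to 614, 2238, 865 and 345 CPM in non-cycling ones, all 5 that passed the limit were higher with OVA under vehicle, and Cxcr2 was at 0 by the rule. Without such cells, an alternative chosen after the data were seen, the log2 ratio of Il1rl1 under vehicle was 0.78 in place of 3.43, that of Il13 −0.11 in place of 2.49, and that of Il4 0.39. Gata3 stayed past 2-fold at 1.97. Under ribavirin the ratios without them were 5.34 for Il1rl1, 3.78 for Il13 and 3.25 for Il4. The limit of 10 is a plain count, so deep cells reach it more readily, above all in a library rich in neutrophil RNA. The 5 cells with Il13 in Vehicle-OVA had a median of 27002 UMIs, against 8673 over all its proliferating T cells. Ratios without such cells, here and below, therefore do not show where the RNA of a gene came from.

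The 20 cells with Il13 in Ribavirin-OVA were checked for T cell genes. They had a median of 14192.5 UMIs and 25 Cd3 UMIs, with a lowest Cd3 count of 2. Cd4 was seen in 15 and Cd8a in none, Thy1 in 19, Lat in 16, the costimulatory receptor Cd28 in 15, the receptor chain Cd247 in 14, Cd5 in 13 and Cd6 in 11. All 20 had Gata3, 18 had Cyp11a1, 17 each had Calca, Il17rb and Areg, 16 had Lag3, 14 had Il10 and 13 had Il4. Markers of type 2 innate lymphoid cells, which also make IL-13, summed to 75.1, 383, 66.5 and 2365 CPM over all proliferating T cells and to 107, 474, 77.9 and 684 CPM in non-cycling ones. That list holds Il1rl1, Il17rb, Areg and Calca, which these cells carried, and Klrg1 and Hs3st1, of which Klrg1 was in 13 of the 20 cells and Hs3st1 in none (it was in 1 of all 104 cells). Their median Mki67 and Top2a count was 5, and 5 of the 20 had 8 or more. In Vehicle-OVA the 5 cells with Il13 had a median of 27002 UMIs and 33 Cd3 UMIs, 4 had Cd4, all 5 had Gata3 and Cyp11a1, and 4 had 8 or more Mki67 and Top2a UMIs.

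Several of the genes highest in both pairs that are not on the type 2 list were seen in these cells. Cyp11a1, the enzyme that starts steroid synthesis, was at 0, 76.1, 0 and 121 CPM from 0, 6, 0 and 23 cells, at least 117-fold and at least 126-fold higher with OVA against the floor. Calca, which encodes the neuropeptide CGRP and calcitonin, was at 0.651, 59.5, 7.03 and 1140 CPM from 3, 5, 8 and 25 cells. In Ribavirin-OVA 5 cells held 86.0% of the Calca UMIs. Il10, a cytokine that restrains inflammation, was at 9.55, 143, 1.28 and 307 CPM from 9, 14, 3 and 24 cells. Its top 5 cells held 73.3% of its UMIs in Vehicle-OVA and 66.5% in Ribavirin-OVA. Without the cells that held other lineages' RNA, Cyp11a1 under vehicle was at a log2 ratio of 0.39, and Il10 and Calca were at 2.66 and 2.30. In non-cycling T cells the log2 ratios were 1.63 and 1.84 for Cyp11a1, 4.01 and 4.00 for Calca and 3.96 and 2.49 for Il10. There Calca was at 6.12, 250, 10.2 and 312 CPM and Il10 at 4.15, 211, 11.7 and 112 CPM. In Vehicle-OVA both stood above their level in the proliferating cells.

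A part of the checkpoint and activation genes was higher in both OVA pairs. Lag3, an inhibitory receptor that binds class II molecules, was at 10.2, 231, 20.1 and 274 CPM, 22.6-fold (16.4 to 31.8) and 13.6-fold (10.4 to 18.1) higher, from 37, 30, 36 and 43 cells. Its log2 ratio under vehicle was 3.29 without the cells that held other lineages' RNA and 3.58 with them. In non-cycling T cells the log2 ratios of Lag3 were 2.00 and 1.47. Among the proliferating cells, 5 cells held 49.5% of the Lag3 UMIs in Vehicle-OVA and 37.5% in Ribavirin-OVA. Of 7 checkpoint genes 4 were higher in each pair, 3 of them in both: Lag3, the inhibitory receptor Pdcd1 at 38.2, 206, 89.1 and 319 CPM, and Tox, a factor of chronically stimulated T cells, at 24.3, 145, 24.3 and 194 CPM. Havcr2 was the fourth under vehicle (22.4, 114, 36.1 and 72.7 CPM) and Ctla4 under ribavirin (391, 722, 412 and 853 CPM), and Cd160 was lower under ribavirin with a log2 ratio of −1.07. Over all genes 9.11% and 7.89% were higher. The median log2 ratio of the 7 checkpoint genes was 1.94 and 1.03, and 1.27 and 0.71 in non-cycling T cells.

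Of 15 activation genes 7 and 5 were higher with OVA, 4 in both, against 9.11% and 7.89% of all genes higher. The median log2 ratio of the 15 was 0.95 and 0.77, and 0.85 and 0.50 in non-cycling T cells. Il2ra, the high-affinity chain of the IL-2 receptor, was at 28.4, 352, 34.2 and 325 CPM from 64, 28, 49 and 52 cells, but 1 cell held 46.6% of its UMIs in Vehicle-OVA, and without the cells that held other lineages' RNA its log2 ratio under vehicle was 0.69 in place of 3.24. Tnfrsf9, the costimulatory receptor 4-1BB, was at 16.1, 234, 43.1 and 143 CPM. Icos, a costimulatory receptor of helper cells, was at 360, 775, 365 and 803 CPM, and Cd44, an adhesion receptor of activated cells, at 125, 344, 160 and 332 CPM. Ikzf2, on a list of regulatory-type genes of which 3 and 4 of 5 were higher, had log2 ratios of 2.00 and 1.29 in these cells without Foxp3. The other genes at the top of both pairs were Dusp16, a phosphatase of stress kinases (1.52, 71.4, 4.15 and 102 CPM), Neb, the muscle protein nebulin (5.43, 111, 12.5 and 133 CPM), and Lgmn, a lysosomal protease (6.30, 76.1, 7.67 and 199 CPM).

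Ccl3, a chemokine, was at 20.6, 519, 18.8 and 142 CPM, and in Vehicle-OVA it was seen in 63 of 77 cells (81.8%). It was also widespread in cells that were not T cells, with 36.6%, 88.8%, 46.3% and 47.7% of neutrophils and 12.4%, 62.8%, 15.3% and 25.4% of B cells, and the share in proliferating T cells of Vehicle-OVA lay below that of its neutrophils. After thinning to 2000 UMIs it was 42.7% in these cells, 82.6% in neutrophils and 35.8% in B cells of Vehicle-OVA, and no source of these UMIs was tested.

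Of 11 type 17 genes, 5 were lower with OVA under ribavirin (Il17a, Il17f, Il22, Tmem176a and Tmem176b) and none higher, against 1 higher (Ahr, a receptor for aromatic ligands, at 32.6, 91.6, 38.0 and 75.8 CPM) and 1 lower (Tmem176b) under vehicle. Il17a was at 730, 548, 675 and 139 CPM, and its level with OVA under ribavirin was 0.206 times (0.176 to 0.24) that without. It was seen in 50.7% (45.5 to 55.8), 23.4% (14.5 to 34.4), 54.4% (47.7 to 61.0) and 19.2% (12.2 to 28.1) of cells, so the share of cells was lower in both OVA libraries while the level was past 2-fold in the ribavirin pair only. After thinning to 2000 UMIs the shares were 35.5%, 16.0%, 36.7% and 10.6%. In the cells with 8 or more Mki67 and Top2a UMIs they were 49.2%, 29.0%, 50.3% and 32.4%. In neutrophils they were 1.96%, 0.828%, 2.36% and 1.34%.

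Il17f, the partner of IL-17A, was at 52.6, 34.5, 46.3 and 0 CPM, at least 20-fold lower with OVA under ribavirin against the floor. Il22, a cytokine that acts on epithelium, was at 68.6, 39.3, 78.9 and 4.64 CPM from 57, 3, 26 and 3 cells. Most cells with Il17a in the libraries without OVA had Cd4, 155 of 192 in Vehicle and 76 of 123 in Ribavirin, and 11 in each had Cd8a.

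Of 16 type 1 and cytotoxic genes 7 and 6 were higher with OVA, 4 in both, against 9.11% and 7.89% of all genes higher. The median log2 ratio of the 16 was 0.81 and 0.78, and 0.25 and 0.01 in non-cycling T cells. Eomes, a factor of cytotoxic and memory cells, was at 15.2, 57.1, 7.99 and 60.3 CPM, Prf1, the pore-forming protein perforin, at 6.08, 35.7, 3.83 and 24.0 CPM, and Ccl4, a chemokine, at 88.6, 878, 121 and 404 CPM. Gzmb, a protease of cytotoxic granules, was at 79.0, 363, 48.9 and 65.7 CPM, 4.59-fold (3.93 to 5.36) higher under vehicle and 1.34-fold under ribavirin. It was seen in 12.9%, 31.2%, 15.5% and 10.6% of cells, and 37 of 49, 17 of 24, 16 of 35 and 8 of 11 of these had Cd8a. Vehicle-OVA stood apart from the other 3 libraries, also after thinning (6.90%, 22.7%, 4.42% and 3.85%). Ifng, the type 1 cytokine, was near the same in all 4, with 162, 109, 118 and 145 CPM and a UMI in 40.1%, 37.7%, 34.5% and 42.3% of cells.

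**Figure D5:**
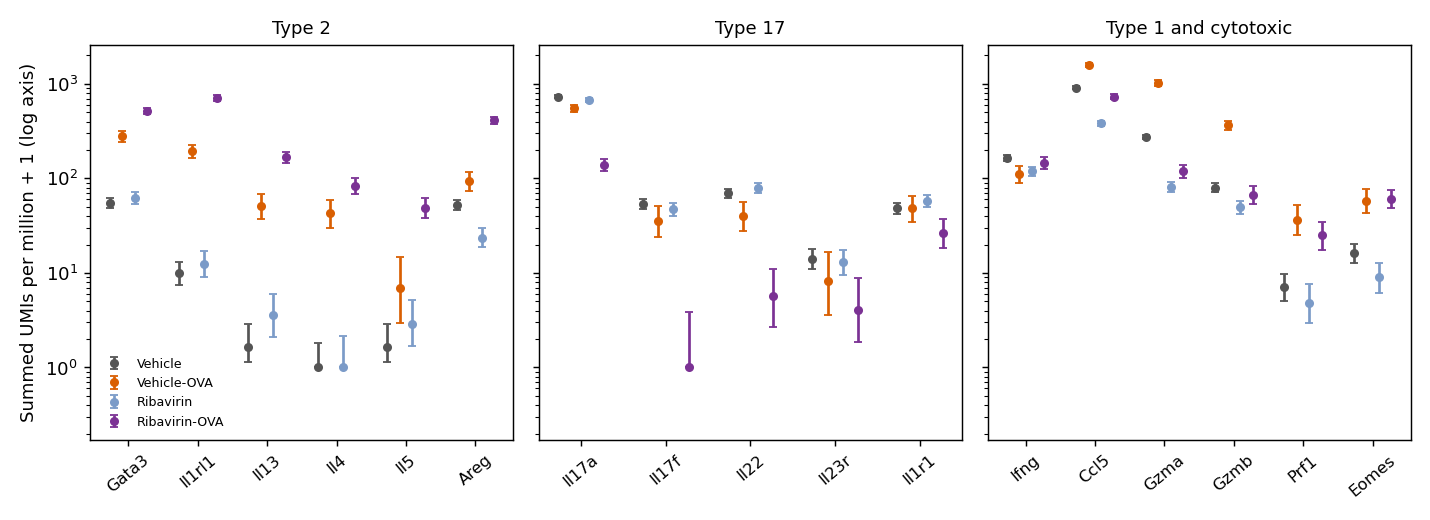
Level (CPM plus 1, log axis) of type 2, type 17 and type 1 or cytotoxic genes in proliferating T cells of the 4 libraries, with bars for the 95% Poisson interval. Gata3 and Il1rl1 stand highest in Ribavirin-OVA, Il17a stands lowest there at 139 CPM, and Gzmb stands highest in Vehicle-OVA at 363 CPM.

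Class II genes, which present antigen to helper T cells, were lower with OVA in both pairs, and their UMIs were concentrated in few cells. H2-Aa was at 279, 46.4, 432 and 42.5 CPM and seen in 48.0%, 19.5%, 46.5% and 34.6% of cells, and its top 5 cells held 53.1%, 74.4%, 74.1% and 41.8% of its UMIs. Cd74, the chaperone of class II, was at 607, 119, 849 and 105 CPM, H2-Eb1 at 242, 52.4, 351 and 34.8 CPM and H2-Ab1 at 313, 79.7, 462 and 61.9 CPM. The dendritic cell list, which holds H2-Aa, H2-Ab1 and Cd74 themselves, summed to 1235, 253, 1770 and 213 CPM in proliferating and to 1557, 230, 1064 and 543 CPM in non-cycling T cells, with 10 or more UMIs in 36, 5, 28 and 2 proliferating cells. Of its other genes, Siglech had 119, 2, 23 and 3 UMIs, Flt3 28, 1, 19 and 1, Cd209a 19, 0, 34 and 1, and Xcr1 3, 4, 7 and 0. Without the cells that held 10 or more UMIs of another lineage, which by construction takes out the cells highest in these genes, the log2 ratio of H2-Aa was −0.85 and −0.43 and that of Cd74 −1.48 and −0.70. Lyz2, the lysozyme of myeloid cells, was at 138, 23.8, 134 and 30.2 CPM, and the macrophage list, Lyz2 included, summed to 347, 152, 365 and 222 CPM with all 8 of its genes detected. The part of such cells in these differences was not tested.

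The ribavirin libraries were then compared with the vehicle libraries within the proliferating T cells. Without OVA 39 genes were higher with ribavirin (0.429% of the genes) and 7 lower (0.077%), 0.506% in either direction. With OVA 60 were higher (0.66%) and 107 lower (1.18%), 1.84% in either direction. In both pairs 18 were higher and 3 lower. These pairs share their libraries with the OVA pairs, so a gene's values in both kinds of pair are not independent.

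The genes higher with ribavirin in both pairs were led by secreted proteins of nasal glands. Obp1b, an odorant-binding protein, was at 28.7, 26.2, 599 and 314 CPM and seen in 29.6%, 6.49%, 90.3% and 90.4% of cells. Obp1a was at 39.5, 28.6, 729 and 276 CPM, Obp2a at 6.95, 3.57, 250 and 85.8 CPM, and Mup4, a lipocalin of the major urinary protein family, at 4.78, 2.38, 151 and 82.7 CPM. Both ribavirin libraries were above both vehicle libraries for each of them. Non-cycling T cells held these genes as well and did not repeat that order, with 1580, 15.1, 2531 and 474 CPM of Obp1b, 903, 1328, 1252 and 132 CPM of Obp2a, and 891, 811, 869 and 113 CPM of Mup4. In them Ribavirin-OVA was above Vehicle-OVA for Obp1b and below it for Obp2a and Mup4. Epithelial genes summed to 13.7, 7.14, 37.4 and 13.9 CPM in proliferating and to 39.1, 24.3, 109 and 137 CPM in non-cycling T cells, and their part in the result was not tested.

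The 3 genes lower with ribavirin in both pairs were Gzma, Ccl5 and Ly6c2, all known from cytotoxic and memory T cells. Gzma was at 275, 1026, 80.8 and 118 CPM from 47, 17, 14 and 8 cells, and 1 cell held 83.4% of its UMIs in Ribavirin. Ccl5, a chemokine, was at 914, 1591, 381 and 734 CPM, and Ly6c2 at 130, 130, 57.5 and 34.8 CPM. Without the cells that held other lineages' RNA, Ly6c2 was at a log2 ratio of −0.55 without OVA and Ccl5 at −0.80 with OVA. Of the type 1 and cytotoxic list 2 genes were lower with ribavirin without OVA and 6 with OVA. Of the type 2 list 6 were higher with ribavirin with OVA, and of the type 17 list 3 were lower.

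Since ribavirin acts on IMPDH, the nucleotide synthesis genes were looked at in these pairs. None of the 27 was past 2-fold in either ribavirin pair. Over all genes the share was 0.506% without OVA and 1.84% with OVA, so a list of 27 genes with no call is near it. Impdh1 was at 16.5, 38.1, 15.0 and 50.3 CPM and Impdh2 at 125, 96.4, 121 and 85.8 CPM, so that both differed more with OVA than with ribavirin. With OVA 2 of the 27 genes were lower under vehicle, and 1 was higher and 4 were lower under ribavirin. Tyms, thymidylate synthase, was at 211, 80.9, 177 and 85.8 CPM, and the part of cells near the limit of the rule in this was not tested.

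Finally, helper and cytotoxic coreceptors and cycle stage were counted per cell. Cd4 was seen in 62.5% (57.4 to 67.4), 54.5% (42.8 to 65.9), 56.6% (49.9 to 63.2) and 68.3% (58.4 to 77.1) of cells, and Cd8a in 21.9%, 31.2%, 19.0% and 21.2%. The Cd4 intervals overlap. Both genes were seen in 13, 1, 5 and 5 cells and neither in 72, 12, 60 and 16. Thinned to 2000 UMIs, the Cd4 shares were 23.9%, 29.3%, 22.1% and 39.4% in proliferating and 28.3%, 29.9%, 26.0% and 26.9% in non-cycling T cells. In B cells, which should lack it, the unthinned share was 8.18%, 3.72%, 9.06% and 8.33% at median depths of 8523, 3888, 8587.5 and 11211.5 UMIs.

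Cells were called S-weighted when the S list took more than 28.74% of their S and G2/M UMIs, the median over all cells. They were 44.9% (39.8 to 50), 68.8% (57.3 to 78.9), 49.1% (42.4 to 55.8) and 56.7% (46.7 to 66.4), with 66, 12, 30 and 30 cells within 5 percentage points of that value. This is a range of a score and not a cell type. Among the cells with 8 or more Mki67 and Top2a UMIs the shares were 39.9%, 61.3%, 42.0% and 32.4%, so Ribavirin-OVA changed its place in the order and Vehicle-OVA did not. Among the cells with 3 or 4 they were 48.3%, 75%, 62.7% and 71.4%. Those cells held few S and G2/M UMIs, near the level of non-cycling T cells, so being S-weighted there need not mean S phase. The OVA libraries held a larger part of such cells, and their part in the shares over all cells was not tested.

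The calls in the other lists, each of few genes, stand beside the shares over all 9093 genes. With OVA these were 9.11% higher and 2.11% lower under vehicle, and 7.89% and 3.15% under ribavirin. With ribavirin with OVA 1.18% were lower. Of 10 interferon-stimulated genes 2 were higher with OVA under vehicle and none under ribavirin, and 1 was lower with ribavirin with OVA. Of 12 glycolysis genes 1 and 0 were higher with OVA. Of 12 p53 targets 2 were higher and 1 lower in each OVA pair. Of 10 genes of tissue dissociation 3 were higher under vehicle, and 2 were higher and 1 lower under ribavirin. Natural killer cell genes summed to 276, 171, 163 and 61.9 CPM, and Ncr1, which defines those cells, was at 0 in both OVA libraries. Ncr1 had only 5 UMIs in Vehicle (1.09 CPM), under the floor of Vehicle-OVA (3.57 CPM), so its 0 there says little. The other 4 of the 5 genes were detected in both OVA libraries. Of the 11 T cell genes none was past 2-fold with OVA under vehicle and 5 were higher under ribavirin, among them Cd28, Cd247, Thy1 and Bcl11b.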

How the data were processed

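CD45+ cells of 4 nasal mucosa samples, 1 library per group, were captured on a 10x Chromium with oligo-dT primers. The authors deposited integer UMI counts per gene and cell, made with Cell Ranger 5.0.0 on mm10 per the submitters' processing notes, with no normalization. Droplet libraries count 3′ ends, so short and poly-A free RNAs are read differently from long ones. Members and gene lists were chosen with earlier results of these data known. Deposited counts were summed over members of a library and scaled to CPM. Log2 ratios had 10 CPM added, and genes with at least 50 UMIs were called at 2-fold. There were no replicates and no test. Named were the genes of the lists, the 12 higher and 12 lower with OVA in both pairs, the 6 higher and 6 lower (3 existed) with ribavirin in both pairs, and the 20 higher and 10 lower than non-cycling T cells, each by the smallest ratio. T cell receptor constant genes were not found under their symbols. Doublets were kept: Scrublet's automatic threshold marked 5.29%, 1.55%, 3.30% and 0.0424% of cells against expected rates of 10.7%, 7.23%, 8.39% and 3.78%, so an alternative removed the expected share by score, which left 341, 71, 201 and 102 members. Depth was evened by thinning each cell to 2000 UMIs. Members held 4605017, 840493, 3130058 and 1293398 UMIs in all, so a floor of 3 counts is highest in Vehicle-OVA. Intervals (95%, SciPy 1.17.1) cover counting error only. Python 3.11.15, NumPy 2.4.6, pandas 2.3.3 and scanpy 1.11.5 were used. The calling steps were tested on simulated data.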

Additional observations from a re-analysis of the deposited data

Results flagged for a closer look

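For 5 genes the OVA difference within proliferating T cells went past 2-fold in opposite directions under vehicle and under ribavirin, and the difference between the pairs was not tested. S100a8, a neutrophil alarmin, had log2 ratios of 2.49 under vehicle and −1.07 under ribavirin, with 70.6, 443, 129 and 56.4 CPM (the libraries stand in the order used above). Its partner S100a9 had 2.45 and −1.32, with 129, 750, 252 and 95.1 CPM, and was seen in 71.2%, 93.5%, 90.3% and 65.4% of cells. Irg1, an enzyme of activated myeloid cells, had 3.30 and −1.04, with 2.61, 114, 18.5 and 3.87 CPM. Wfdc17 had 1.59 and −1.59, with 30.8, 113, 43.4 and 7.73 CPM. Klrb1b, a lectin-like receptor of killer cells, had 1.20 and −1.05, with 6.30, 27.4, 28.4 and 8.50 CPM. Neutrophil genes in non-cycling T cells summed to 614, 2238, 865 and 345 CPM and in the proliferating cells to 216, 1366, 415 and 188 CPM, and their part in these differences was not tested.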

How the results depend on the processing

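With 1 library per group, no library could be left out, and 11044 to 12407 median UMIs in the libraries without OVA against 8673 and 10424.5 with OVA limit per-cell shares. No paired analysis was possible because each group has 1 library and no result comes from a test. The limit of 8 Mki67 and Top2a UMIs and the removal of cells with other lineages' UMIs were chosen after seeing the data. The log2 ratio of the share of T cells with OVA was −0.14 under vehicle, −0.67 at a limit of 5 and −0.84 at 8, and 0.07 under ribavirin, −0.61 at 5 and −0.88 at 8. At a limit of 2 the share with OVA was 12.2% against 11.4% under vehicle and 13.5% against 11.4% under ribavirin. After thinning it was 16.5% against 16.5% and 15.3% against 15.0%. Under vehicle the 828 higher and 192 lower genes with OVA became 324 and 525 with the median ratio set to 0, 1804 and 448 with 1 CPM added in place of 10, 1340 and 626 after thinning, and 1286 and 412 without cells holding other lineages' UMIs. Under ribavirin 717 and 286 became 290 and 656, 1659 and 547, and 1327 and 594 under the first 3 of these. With ribavirin without OVA, 39 and 7 became 118 and 45 with 1 CPM, 22 and 3 at 200 UMIs per gene, and 93 and 53 after thinning, and the lower count was 4 with doublets removed. With ribavirin with OVA, 60 and 107 became 302 and 307 with 1 CPM, 36 and 44 at 200 UMIs, 674 and 657 after thinning, and 110 and 200 at 8 UMIs, and the higher count was 95 with the mean of single-cell CPM and 235 without cells holding other lineages' UMIs, where the higher genes went from 35.9% to 59.9% of the calls. The Cd4 share after thinning was 23.9%, 29.3%, 22.1% and 39.4%, and the Cd8a share 14.1% in Vehicle and 10.2% in Ribavirin. Of 72 ratios of named genes, all kept their sign under 4 alternatives, 71 with the mean of single-cell CPM, and 70 each after thinning and without cells holding other lineages' UMIs. Among ratios past 2-fold 1 changed sign, that of Il13 with OVA under vehicle, at −0.11 without those cells. Of 70 ratios past 2-fold, 65 to 70 stayed so under 6 of the 7 alternatives and 55 without those cells. The cause of these changes was not tested.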
